A study of Mus musculus with 10 samples.

Results

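Ribosomal proteins are the protein parts of the ribosome, the machine that translates mRNA. Those whose symbols start with Rpl belong to the large subunit, which joins amino acids, and those starting with Rps to the small subunit, which reads the mRNA. The cytosolic set is encoded in the nucleus, and many of its mRNAs begin with a run of pyrimidines (a terminal oligopyrimidine tract) that ties their translation to growth signals. Ribosomal protein genes are known targets of MYC and MYCN, and excess MYCN drives neuroblastoma. The genes described here are the protein-coding mouse genes with a symbol of Rpl or Rps followed by a digit, with Rpsa, Rplp0, Rplp1 and Rplp2. The S6 kinases (Rps6k), Rps27l, Rps19bp1 and rows with -ps in the symbol were left out. The rule gave 84 of the 54446 gene rows, 52 for the large and 32 for the small subunit, on 19 chromosomes.

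The data came from sequencing of polyadenylated RNA of tumours of TH-MYCN mice, which carry a human MYCN transgene under a tyrosine hydroxylase promoter and form neuroblastoma in the sympathetic nervous system. The groups were tumours treated for 24 h (n = 3, repeats 2 to 4), tumours treated for 5 days (n = 4, repeats 1 to 4) and untreated tumours (n = 3, repeats 1 to 3). The titles call the treatment a combination without naming its drugs, and the series' design text names MLN8237 and AZD6738. MLN8237 is alisertib, which inhibits Aurora-A, a kinase of mitosis. AZD6738 is ceralasertib, which inhibits ATR, a kinase that responds to stalled replication. The design text puts "or" between the names, so the pairing is read from the word for a combination, and no group treated with a single drug was analysed here. All groups carry the transgene, reads of which could fall on mouse Mycn. No source used here says that each library is from its own mouse, and the p-values therefore speak only of how much these libraries vary. In whole tumours, fewer cells of a type and less RNA per cell cannot be told apart.

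Libraries held 5576926 to 5696436 counts, and the upper limit for a row without counts (3 counts, counting error only) came to 0.652 CPM in 5-day library 1 and 0.514 to 0.531 CPM in the others. CPM are counts scaled to a common library size. The library numbered 1 of the 5-day group stood apart. Its 17 markers of sympathetic tumour cells summed to 889 CPM, against 2465 to 3863 CPM in the other 9 libraries. Its macrophage markers summed to 13931 CPM, its fibroblast markers to 18215 CPM (380 to 2782) and its adipocyte markers to 12631 CPM (at most 1747). Macrophage markers summed to 1266 to 1531 CPM at 24 h, to 1002 to 1658 CPM in 5-day libraries 2 to 4 and to 585 to 998 CPM in untreated tumours, so that every treated library was above every untreated one. Schwann cell markers did the same on a smaller scale, at 109 to 136 CPM at 24 h, 107 to 188 CPM at 5 days and 92.0 to 101 CPM in untreated tumours. Library 2 of the 5-day group held 1618 CPM of adrenal cortex markers (10.6 to 98.4 CPM elsewhere). Of the marker lists, Itgam (macrophage), Ms4a1 (B cell), Alas2 (erythroid) and Acta1 (muscle) were at 0 in every library. The part of these cells in the values below was not tested, and medians at 5 days, with fold changes of single genes that 5-day library 1 moved by more than 1.5 times, are also given without that library.

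A large part of the signal of this gene family sat outside the 84 rows. The genome holds many processed copies of ribosomal protein mRNAs, and 289 gene rows carried such a -ps symbol, of which 6 were annotated as protein-coding. Counts were found in 154 of them, and 74 averaged more than 100 counts per library. Of the counts of both kinds together, the -ps rows held 33.2% ± 0.2 at 24 h (SD, n = 3), 33.8% ± 0.5 at 5 days (n = 4) and 33.3% ± 0.3 in untreated tumours (n = 3). Over all 10 libraries that share ran from 33.0% to 34.6%, highest in 5-day library 1. For 28 of the 84 genes the -ps rows held more counts than the gene's own row. Any copies with other symbols are not in these shares, nor in those of single genes below. The sources used here do not say how reads that align to several places were counted, so levels of single genes are uncertain, and those of genes with copies most of all.

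The following pairs show how close such copies are. They are the stretches of coding sequence from GENCODE M21 (GRCm38) for 4 genes whose copies held most of the family's counts, with capitals at the bases that differ between gene and copy. The principal transcripts of the 4 genes lie at chr15:80077791-80083406 (minus strand, Rpl3), chr17:28328568-28331032 (plus strand, Rpl10a), chr17:27630418-27635545 (minus strand, Rps10) and chr8:123102350-123105244 (plus strand, Rpl13).
Rpl3, coding bases 1 to 60: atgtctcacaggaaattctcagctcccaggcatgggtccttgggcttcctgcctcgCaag
Rpl3-ps1, the same stretch: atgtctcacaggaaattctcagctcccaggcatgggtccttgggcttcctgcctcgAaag
Rpl10a, coding bases 1 to 60: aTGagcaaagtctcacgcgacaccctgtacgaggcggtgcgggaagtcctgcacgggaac
Rpl10a-ps1, the same stretch: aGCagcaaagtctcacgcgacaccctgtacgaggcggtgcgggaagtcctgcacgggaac
Rps10, coding bases 391 to 450: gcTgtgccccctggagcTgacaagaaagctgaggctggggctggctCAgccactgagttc
Rps10-ps2, the same stretch: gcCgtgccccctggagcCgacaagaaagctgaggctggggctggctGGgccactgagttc
Rpl13, coding bases 91 to 150: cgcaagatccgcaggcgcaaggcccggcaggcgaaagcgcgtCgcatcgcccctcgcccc
Rpl13-ps6, the same stretch: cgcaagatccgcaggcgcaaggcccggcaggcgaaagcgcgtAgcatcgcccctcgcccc
The Rpl3 and Rpl13 pairs differed at 1 base of 60, the Rpl10a pair at 2, which include the start codon, and the Rps10 pair at 4. Among the 60-base windows compared along each coding sequence, none differed from the copy shown at more bases than these. Only 1 copy per gene is shown.

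Rpl3, which lies near the peptidyl transferase centre, had 11925 counts over the 10 libraries, and Rpl3-ps1 had 45930. Rpl10a had 13949 counts and Rpl10a-ps1 had 29554. Rps10, a small subunit protein, had 2 counts in all, while Rps10-ps2 had 14105 and Rps10-ps1 had 11493. Of the exon bases of Rps10, 20.6% overlap other annotated genes on the same strand, chiefly the protein-coding RPS10-NUDT3. Rpl13 had none in any library, and Rpl13-ps6 had 10855. Rpl13 and Rps10 are parts of every cytosolic ribosome, so their rows at or near 0 are not read here as absence of expression. Besides Rpl13, the rows at 0 in all libraries were Rpl35, Rpl35a, Rps27rt, Rpl7l1 and Rpl10l. Those of Rpl35, Rpl35a and Rpl24 (1 count in all) are likewise not read as absence of expression. The -ps rows of Rpl35a held 5705 counts. Of the exon bases, 66.2% in Rpl35 overlap genes on the opposite strand and 47.0% in Rpl24 genes on the same strand. The part of copies and overlap in these rows was not tested. Over all 84 genes, the stretches of 50 bases that occur in no other annotated gene made up a median of 46.1% of the transcript, from 1.35% in Rps27 upwards. Across the 78 genes with counts, that percentage went with the -ps share at a Spearman coefficient of -0.44 (a description across genes, which are not independent).

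**Figure D1:**
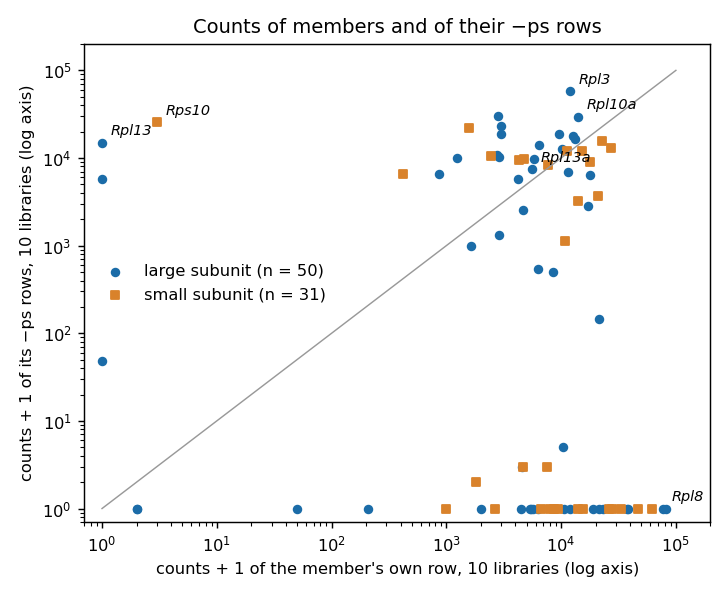
Each point is a ribosomal protein gene with counts in its own row or in its -ps rows, with its own counts on the x axis and those of its -ps rows on the y axis (sums over 10 libraries plus 1, log axes; blue circles large, orange squares small subunit). Points above the grey line of equality have more counts in the copies, as Rpl3 (11925 own and 57464 -ps counts) does, and Rpl13 and Rps10 sit at the left edge.

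After the filter on low counts, 74 of the 84 genes were tested among 14956 genes, 44 of the large and 30 of the small subunit. The 10 left out were the 6 rows at 0 and Rps10, Rpl24, Rpl39l and Rpl3l. Per kb of transcript, the tested genes spanned from 6.95 CPM for Rpl36al to 1587 CPM for Rpl8, with a median of 156. Rpl41, the shortest ribosomal protein (1135 CPM per kb), and Rps15 (967) were also among the highest, and Rps15a (16.3) and Rpl30 (26.8) among the lowest. The Rps15a value divides by a principal transcript of 5179 bases. Of the counts of gene and copies together, the -ps rows held 67.3% for Rps15a and 88.5% for Rpl30. The part of transcript length and copies in these ranks was not tested. Apart from the stalk proteins Rplp1 and Rplp2, a ribosome holds its proteins in equal numbers, whereas the levels of their rows spanned a wide range. The small subunit had a median of 183 CPM per kb (n = 30 genes) and the large subunit 136 (n = 44 genes).

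Summed over the large subunit, the level was 9601, 11490 and 10785 CPM in 24 h libraries 2, 3 and 4. It was 7263, 9663, 9363 and 10173 CPM in 5-day libraries 1 to 4, and 11439, 9584 and 10445 CPM in untreated libraries 1 to 3. The 5-day libraries 2 to 4 lay inside or just below the range of the untreated ones, and library 1 lay under all others. The small subunit summed to 7313, 8865 and 8514 CPM at 24 h, to 6118, 7239, 7162 and 7688 CPM at 5 days and to 8770, 7479 and 8035 CPM in untreated tumours. As for the large subunit, untreated library 1, 24 h library 3 and 5-day library 4 were the highest of their groups, and untreated library 2, 24 h library 2 and 5-day library 1 the lowest. Before scaling, all 84 genes took 1.94% ± 0.19 of the counts at 24 h (SD, n = 3), 1.58% ± 0.34 at 5 days (n = 4; 1.75% ± 0.04 without library 1, n = 3) and 1.90% ± 0.16 in untreated tumours (n = 3). These shares overlapped between groups.

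The ratio of large to small subunit counts differed little between groups. It was 1.29 ± 0.02 at 24 h (SD, n = 3), 1.29 ± 0.07 at 5 days (n = 4) and 1.30 ± 0.01 in untreated tumours (n = 3). Library 1 of the 5-day group had the lowest ratio, 1.19, and the other 9 libraries ranged from 1.27 to 1.33. Without library 1 the 5-day ratio was 1.32 ± 0.01 (n = 3). It then ran from 1.307 to 1.335, above the untreated range of 1.281 to 1.304. With the 3 genes with most counts and the paralogs also left out, these ranges overlapped (1.078 to 1.118 and 1.068 to 1.095).

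**Figure D2:**
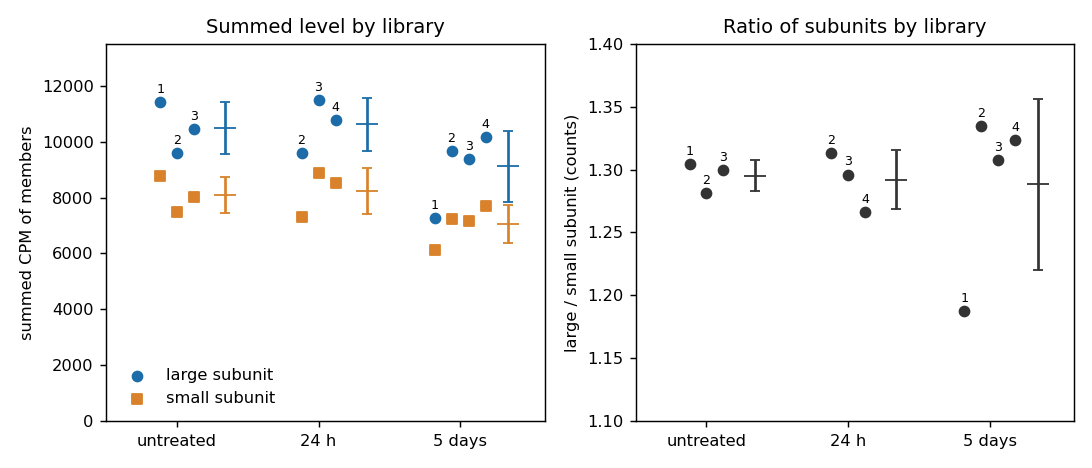
Left, summed CPM of large (blue circles) and small subunit genes (orange squares) in each library; right, the ratio of large to small subunit counts, on an axis that does not start at 0. Digits are library numbers and bars are means with SD (n = 3, 3 and 4). The 5-day library 1 is the lowest in both panels, with 7263 CPM for the large subunit and a ratio of 1.19.

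At 24 h, ribosomal protein genes had levels close to those of untreated tumours, some slightly higher and some slightly lower. Of the 74 tested genes, 0 were called at an adjusted p under 0.05 by edgeR's quasi-likelihood test, where 0.0% of all 14956 genes were called in either direction. At an unadjusted p under 0.05 there were also 0 (1.14% of all genes higher and 0.615% lower), and DESeq2 called 0. The log2 fold change of 24 h against untreated was positive for 44 of the 74 (48.5% of all genes) and negative for 30 (51.5%), with a median of 0.02 (all genes tested, -0.01). The median was 0.02 for the large subunit and 0.01 for the small subunit. Standard errors of single genes ranged from 0.11 (Rpl10) to 0.43 (Rpl36al), with a median of 0.16.

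Rpl15, a large subunit protein whose loss blocks rRNA processing, was the lowest at 24 h. Its levels were 181, 208 and 203 CPM in the 24 h libraries and 251, 220 and 235 CPM in the untreated ones, without overlap. The log2 fold change was -0.25 ± 0.13 (SE; unadjusted p = 0.091, adjusted p = 1.0 from edgeR). Without 5-day library 1 in the fit, whose biological coefficient of variation was then 18.9% and not 40.8%, the unadjusted p was 0.019 and the adjusted p 0.515. Rpl29, a basic large subunit protein that also binds heparin, was the other gene whose groups did not overlap, at 31.3, 32.0 and 35.9 CPM at 24 h and 31.2, 27.1 and 31.2 CPM in untreated tumours, with the nearest libraries almost level. That makes 1 higher and 1 lower gene of 74, where 7.11% and 6.69% of all genes had no overlap. Among the highest fold changes with a mean of at least 5 CPM were those of Rps15 (0.15 ± 0.17) and Rps13 (0.15 ± 0.21), each smaller than its SE. The lowest after Rpl15 were Rps28 (-0.22 ± 0.30), Rpl23a (-0.19 ± 0.17) and Rps27 (-0.18 ± 0.21), likewise near their SE.

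At 5 days, nearly every ribosomal protein gene had a lower mean than in untreated tumours, by a small amount that no single gene's test separated from the spread. The log2 fold change was negative for 73 of the 74 genes, where 49.4% of all tested genes were negative. The median was -0.19 over the 74, -0.19 for the large and -0.19 for the small subunit, and 0.01 over all genes tested. Of the 74, 0 were called by edgeR (0.0% of all genes) and 0 by DESeq2. At an unadjusted p under 0.05 there were 3, Rpl15, Rps7 and Rps15a, all lower (2.03% of all genes were lower at that p, and 6.38% higher). A part of the size rested on 1 library. Without 5-day library 1 the median was -0.11 (all genes 0.00), with 68 of 74 negative against 48.8% of all genes. The sums of macrophage and of Schwann cell markers were higher in every 5-day library than in any untreated one, with or without library 1. For macrophages the nearest libraries were almost level (1002 CPM in 5-day library 4, 998 CPM in untreated library 1). The part of these cells in the values was not tested. With a trend on transcript length also taken out, as described further on with the counts for other genes, 55 of 74 were negative.

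Against 24 h the 5-day values were similar. These comparisons share the 5-day libraries, so they are not separate evidence. The median of the 74 log2 fold changes was -0.21 (all genes 0.03), with 71 negative (47.2% of all genes), -0.22 for the large and -0.20 for the small subunit. Called were 0 by edgeR (0.0% of all genes) and 0 by DESeq2, and 4 had an unadjusted p under 0.05, among them Rpsa, Rpl10a and Rpl29, all lower (2.34% of all genes were lower and 3.96% higher). Without 5-day library 1 the median was -0.14, with 69 negative (49.4% of all genes), and 47 with the length trend also taken out (other genes further on). Large minus small subunit, the medians differed by 0.01 at 24 h against untreated, 0.00 at 5 days against untreated and -0.02 at 5 days against 24 h.

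**Figure D3:**
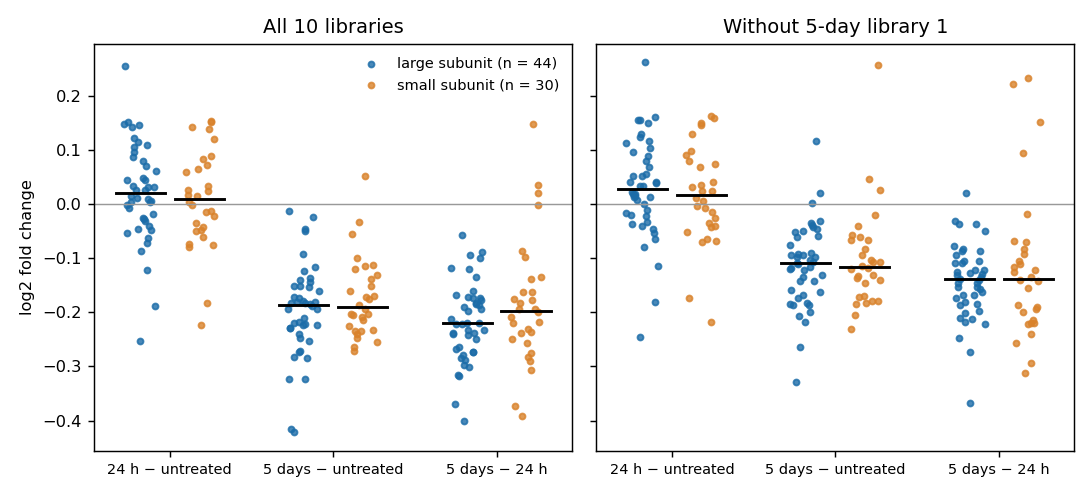
Each point is the log2 fold change of a tested ribosomal protein gene in a comparison (blue, 44 large subunit; orange, 30 small subunit genes) and black lines are medians. With all 10 libraries (left) the 5-day medians lie near -0.2 (-0.19 and -0.21 over both subunits), and without 5-day library 1 (right) nearer to 0 (-0.11 and -0.14), with the medians of large and small subunit close together.

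Groups at 5 days and in untreated tumours did not overlap for 10 of the 74 genes, all lower at 5 days (4.89% of all genes had no overlap and were lower, and 4.01% higher). They were Rpl5, Rpl12, Rpl15, Rpl22, Rpl27, Rps3a1, Rps7, Rps9, Rps14 and Rps15a. Against 24 h it was 9 of 74, all lower (4.35% of all genes, with 3.32% higher). Those were Rpl6, Rpl10a, Rpl22, Rpl27, Rpl29, Rpl30, Rps4x, Rps9 and Rpsa. Rps9, Rpl22 and Rpl27 stood in both lists, which share the 5-day libraries. Without 5-day library 1 the counts were 11 (7.6% of all genes) and 11 (6.68%). These lists are named because of their values, which are those of the genes' own rows. With -ps rows added, some groups overlapped, for example those of Rpl5 and Rps15a at 5 days and in untreated tumours, as given below.

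Rpl15 was again among the lowest, with 146, 185, 195 and 179 CPM in 5-day libraries 1 to 4 and 251, 220 and 235 CPM in untreated libraries. Every 5-day library was below every untreated one. The log2 fold change was -0.42 ± 0.13 (SE; unadjusted p = 0.009, adjusted p = 0.538). Without 5-day library 1 it was -0.33 ± 0.09 (unadjusted p = 0.004, adjusted p = 0.338). The copy Rpl15-ps3, all of whose 50-base stretches also occur in Rpl15, had a log2 fold change of -0.29 (unadjusted p = 0.0563).

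Rps9, a small subunit protein that helps to set the accuracy of decoding, was close to even among the 5-day libraries, at 519, 538, 549 and 552 CPM. It stood at 561, 703 and 643 CPM in the 24 h libraries and at 658, 571 and 635 CPM in untreated libraries. All 5-day libraries were below all others, library 1 with only a small gap to libraries 2 to 4. Against untreated the log2 fold change was -0.20 ± 0.12 (adjusted p = 0.549), and -0.18 ± 0.10 without 5-day library 1 (adjusted p = 0.654).

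Rps7, which can bind Mdm2, stood at 159, 172, 187 and 177 CPM at 5 days and at 221, 199 and 201 CPM in untreated tumours. The log2 fold change was -0.25 ± 0.11 (unadjusted p = 0.042, adjusted p = 0.538). Rps15a stood at 70.4, 77.8, 77.3 and 83.9 CPM at 5 days and at 91.9, 84.7 and 96.1 CPM in untreated tumours. Its log2 fold change was -0.23 ± 0.10 (unadjusted p = 0.047, adjusted p = 0.538). Both had all 5-day libraries below the lowest untreated library, Rps15a by less than 1 CPM. The -ps rows held 67.3% of the counts of Rps15a and its copies. With these added, before scaling, 5-day library 2 (258 CPM) was above untreated library 2 (252 CPM). Leaving out 5-day library 1 gave -0.21 ± 0.09 for Rps7 (unadjusted p = 0.043) and -0.18 ± 0.09 for Rps15a (unadjusted p = 0.062) from edgeR.

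Rpsa, a small subunit protein also known as the laminin receptor precursor, was at 356, 449, 444 and 479 CPM at 5 days and at 485, 590 and 603 CPM at 24 h. The 5-day libraries were all below the 24 h ones, and the log2 fold change was -0.37 ± 0.15 (unadjusted p = 0.035, adjusted p = 0.581). In untreated tumours Rpsa was at 571, 455 and 499 CPM, which overlapped with 5 days.

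Within the large subunit, the 5S particle and the stalk were looked at apart. Rpl5 and Rpl11 carry the 5S rRNA into the ribosome and bind Mdm2, the ubiquitin ligase of p53, when they are free. Rpl5 was at 175, 213, 204 and 223 CPM at 5 days and at 269, 226 and 231 CPM in untreated tumours (log2 fold change -0.25 ± 0.13, adjusted p = 0.538). Rpl11 was at 78.0, 105, 104 and 118 CPM at 5 days and at 125, 108 and 122 CPM in untreated tumours (-0.23 ± 0.15, adjusted p = 0.553). With 5-day library 1 left out, the fold change was -0.12 ± 0.10 for Rpl11 and -0.17 ± 0.10 for Rpl5. In its own row Rpl5 did not overlap between those groups, whereas 5-day library 4 placed Rpl11 inside the untreated range. The -ps rows held 57.9% of the counts of Rpl5 and its copies. With these added, before scaling, 5-day library 4 (547 CPM) was above untreated library 2 (544 CPM), so the groups overlapped. At 24 h both genes were within 0.03 of untreated on the log2 scale (-0.03 and 0.00).

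The stalk, built of Rplp0 with Rplp1 and Rplp2, recruits elongation factors to the ribosome. Rplp0 was at 454, 622, 648 and 677 CPM at 5 days and at 773, 642 and 697 CPM in untreated tumours. Rplp1 was at 452, 400, 354 and 391 CPM at 5 days and at 438, 366 and 437 CPM in untreated tumours. The 5-day library 1 was thus the lowest of its group for Rplp0 and the highest for Rplp1. Before scaling, Rplp1 was at 365, 415, 367 and 392 CPM in 5-day libraries 1 to 4, with library 1 the lowest. Rplp2 was at 86.1, 102, 81.9 and 97.0 CPM at 5 days and at 116, 98.8 and 106 CPM in untreated tumours. The log2 fold changes against untreated were -0.23 ± 0.17 for Rplp0, -0.05 ± 0.15 for Rplp1 and -0.22 ± 0.16 for Rplp2, and none was called. Without library 1 they were -0.11 ± 0.10, -0.11 ± 0.12 and -0.19 ± 0.16 in the same order, so the gap between Rplp0 and Rplp1 rested on that library.

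Rps6, the target of S6 kinases, was at 188, 239, 238 and 244 CPM at 5 days and at 285, 243 and 258 CPM in untreated tumours (log2 fold change -0.21 ± 0.13, adjusted p = 0.553, and -0.12 ± 0.09 without 5-day library 1). Rpl10, which takes part in the joining of the subunits, was nearly constant, at 106, 95.8, 101 and 98.3 CPM at 5 days and at 110, 92.0 and 102 CPM in untreated tumours (-0.01 ± 0.10, adjusted p = 0.958, and -0.03 ± 0.09 without library 1). Rpl38 and Rpl10a, which in mouse have been tied to the translation of particular mRNAs, had log2 fold changes of -0.18 ± 0.14 and -0.17 ± 0.14. Rps25 (-0.16 ± 0.14), Rps3 (-0.21 ± 0.14), Rps27a, which is made as a fusion with ubiquitin (-0.18 ± 0.18), and Rps4x, encoded on the X chromosome (-0.20 ± 0.12) had values in the same range. Those of Rpl38, Rpl10a, Rps25, Rps3 and Rps27a were all closer to 0 without 5-day library 1. They were then -0.10 ± 0.12 for Rpl38, -0.10 ± 0.11 for Rpl10a, -0.08 ± 0.12 for Rps25, -0.14 ± 0.09 for Rps3 and -0.11 ± 0.16 for Rps27a. The lowest after Rpl15 and Rpl13a were Rpl23a (-0.32 ± 0.16) and Rpl36a (-0.32 ± 0.18), at -0.22 ± 0.12 and -0.20 ± 0.14 without library 1. Rps27, at no more than 19.1 CPM in the 5-day libraries and 22.1 CPM in untreated ones, had -0.03 ± 0.20, which became 0.05 ± 0.18 without library 1. Against 24 h, Rps27 (0.15 ± 0.20) and Rps29 (0.02 ± 0.20) were among the 3 positive values, at 0.22 ± 0.18 and 0.10 ± 0.19 without it.

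Paralogs with restricted expression were near 0. Of Rpl10l and Rpl39l, known from testis, Rpl10l had 0 counts in every library and Rpl39l had counts only in 5-day library 1, at 0.22 CPM, under the limit of 3 counts. Rpl3l, the form of striated muscle, was at 0.87, 5.32, 0.00 and 1.59 CPM in 5-day libraries 1 to 4 and at or below 0.52 CPM in the 24 h and untreated libraries. The sum of the skeletal muscle markers was 510 CPM in 5-day library 2, 180 CPM in 5-day library 4 and 2.96 to 7.37 CPM in the others. Its part in the Rpl3l values was not tested. Rpl22l1, which can stand in for Rpl22, was at 34.8, 37.9, 29.7 and 34.0 CPM at 5 days and at 45.3, 27.7 and 32.6 CPM in untreated tumours (-0.05 ± 0.22). Rpl22 itself was at 200, 288, 296 and 287 CPM at 5 days and at 367, 297 and 313 CPM in untreated tumours (-0.28 ± 0.16, adjusted p = 0.538, and -0.16 ± 0.10 without 5-day library 1).

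The tested genes' own rows were not shifted alike in 5-day library 1. Set against the mean of 5-day libraries 2 to 4, its level had a median of 79.9% over the 74 genes, with 66 under and 8 over 100%. It was the lowest of all 10 libraries for 58 of the 74 (78.4%), and for 38.1% of all genes tested. The medians were 76.8% for the large and 81.5% for the small subunit. Rpl13a, a large subunit protein that in human cells also silences inflammatory mRNAs, was furthest down, at 38.5 CPM and 40.3% of the mean. In the 5-day libraries 2 to 4 it was at 94.9, 86.7 and 104.8 CPM, in 24 h libraries at 94.7, 123 and 96.8 CPM and in untreated libraries at 116, 103 and 108 CPM. Its copy Rpl13a-ps1 was at 113 CPM in 5-day library 1, which is 95.5% of the mean of libraries 2 to 4. Of the exon bases of Rpl13a, 35.4% overlap other annotated genes on the same strand, chiefly the protein-coding Gm45713. The part of this overlap in the values of Rpl13a was not tested.

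At the other end from Rpl13a were Rplp1 (118%), Rpl30 (114%), Rpl9 (110%), Rpl10 (108%) and Rpl39 (106%). All these percentages are of scaled CPM, with a scaling factor of 0.808 for 5-day library 1. Of the counts of gene and copies together, the -ps rows held 88.5% for Rpl30, 91.3% for Rpl9, 63.1% for Rpl10 and 57.3% for Rpl39. Rplp1 had no -ps rows. The part of the assignment of reads between gene and copies in these percentages was not tested. Because of library 1, the fold change of Rpl13a at 5 days against untreated was -0.42 ± 0.29 with all libraries and -0.18 ± 0.12 without it, a change of more than 1.5 times. Mouse Mycn was at 21.5 CPM in library 1 and at 93.9 to 105 CPM in the other 5-day libraries, and Npm1, a nucleolar protein, was at 292 and at 662 to 731 CPM. That placed Mycn at 21.9% of its mean in the others, under every one of the 74 ribosomal protein genes.

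**Figure D4:**
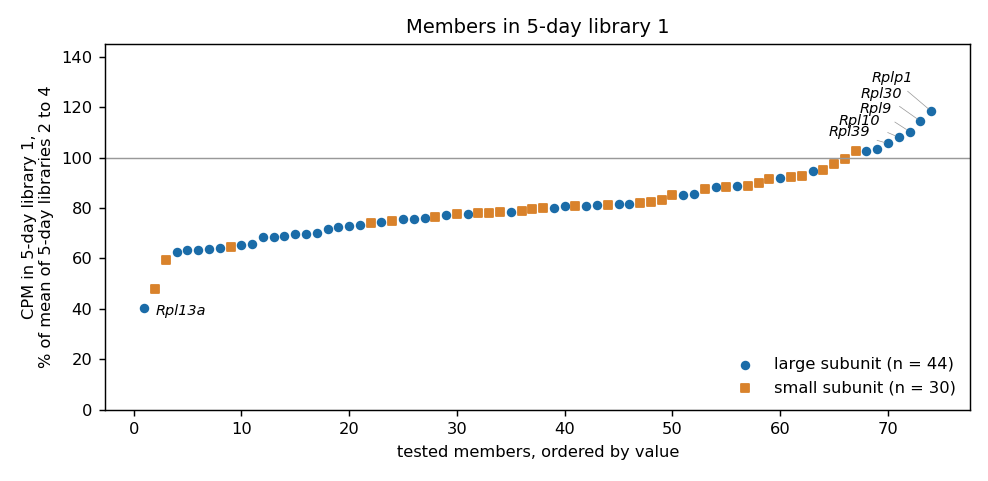
The 74 tested genes in order of their CPM in 5-day library 1 as a percentage of their mean in 5-day libraries 2 to 4 (y axis; blue circles large, orange squares small subunit; grey line at 100%). Most lie near the median of 79.9%, with Rpl13a at 40.3% and Rplp1 at 118%. Values are those of each gene's own row, without its -ps rows.

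Within groups, libraries ranked the same way for most ribosomal protein genes. Untreated library 1 was the highest of its group for 63 of the 74 (34.1% of all genes) and library 2 the lowest for 67 (34.2% of all genes). At 24 h, library 2 was the lowest for 67 (38.7%) and library 3 the highest for 57 (34.4%). Short transcripts of other genes ranked with them, and their part in the values was not tested. Of the 74 genes, 39 have a principal transcript under 800 bases, as do 365 of 12518 other tested genes with a length. In 24 h library 2 the median deviation from the group mean (log2 scale) was -0.16 for the 74 genes and -0.17 for the other genes under 800 bases. In 24 h library 3 it was 0.13 and 0.17, in untreated library 1 it was 0.13 and 0.10, and in untreated library 2 it was -0.13 and -0.14. Other genes of 3000 bases or more deviated the opposite way in these 4 libraries, by 0.05, -0.04, -0.05 and 0.06.

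The comparison of groups carries part of the same pattern. Without 5-day library 1, other genes under 800 bases had a median log2 fold change of -0.07 at 5 days against untreated and -0.10 against 24 h, beside -0.11 and -0.14 for the ribosomal protein genes. An alternative chosen after seeing the data took a smooth trend on transcript length out of each library. Those values for the ribosomal protein genes were then -0.05, with 55 of 74 negative, and -0.03, with 47 of 74 negative. The 39 of them under 800 bases were at -0.0193 (25 negative) and -0.0025 (20 negative). The 26 of 800 to 1500 bases were at -0.055 (21) and -0.0388 (19). The 7 of 1500 to 3000 bases were at -0.127 (7) and -0.0314 (6), and the 2 longer ones at -0.175 (2) and -0.237 (2). Of the other genes without that library, 168 of 359 under 800 bases were then negative against untreated and 170 against 24 h. From 800 to 1500 bases these were 667 and 647 of 1373, and from 1500 to 3000 bases 2048 and 1972 of 4233. Among those of 3000 bases or more, 3147 and 3006 of 6332 were negative. With all 10 libraries and that trend taken out, the medians of the ribosomal protein genes were -0.17 and -0.16. In 5-day library 1 itself, short transcripts did not move with the ribosomal protein genes, as other genes under 800 bases deviated by 0.15 and the 74 genes by -0.24.

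**Figure D5:**
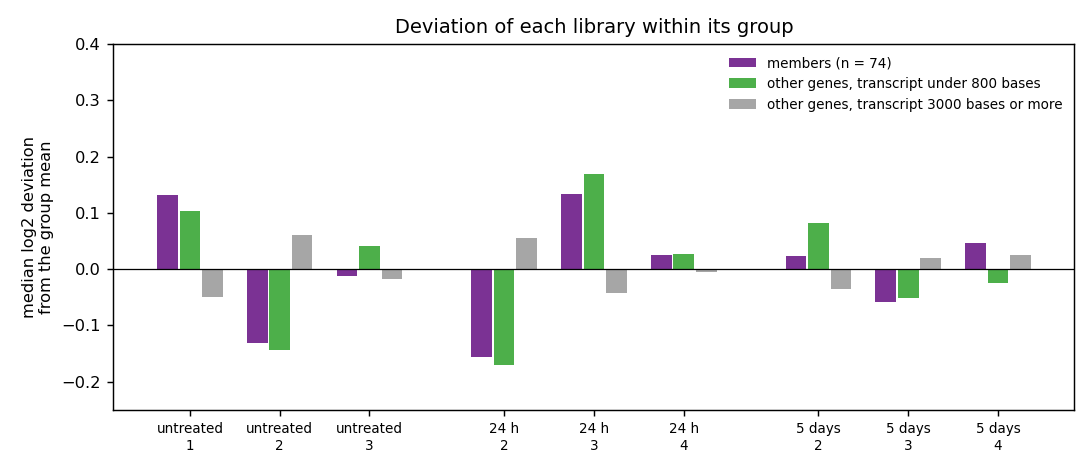
Bars give the median deviation (log2 CPM) of each library from its group mean for the 74 ribosomal protein genes, for other genes with a transcript under 800 bases and for other genes of 3000 bases or more. The 5-day group is drawn without library 1. In the untreated libraries 1 and 2 and the 24 h libraries 2 and 3 the first and second bars point the same way and the last the other way.

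Genes around the ribosome were set beside these values. Ribosomal proteins with other names included Rack1, a scaffold on the small subunit (log2 fold change at 5 days against untreated -0.15 ± 0.14, and -0.07 ± 0.09 without 5-day library 1), and Fau, which carries small subunit protein S30 (0.02 ± 0.15). Of 71 tested mitochondrial ribosomal protein genes, which make the separate ribosome of mitochondria, 0 were called, with a median of -0.08 and 54 negative. Of 21 other translation genes, many with a pyrimidine tract, 0 were called, with a median of -0.17 and 20 negative. Of 37 ribosome biogenesis genes 0 were called, with a median of -0.23 and 35 negative, and 5-day library 1 was their lowest of 10 libraries for 36. Without that library the medians were -0.02, -0.07 and -0.06. Background shares are those given above for all genes.

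The start regions of 6 genes are shown because the pyrimidine tract is the sequence that the family is known for, and these are genes described above. They run from 10 bases before to 20 bases after the RefSeq transcript start (GRCm38.p6), with the tract found (a C followed by at least 4 pyrimidines) in capitals.
Rpl15, chr14:18270967-18270996, minus strand: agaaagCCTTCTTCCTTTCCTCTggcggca
Rpl13a, chr7:45128726-45128755, minus strand: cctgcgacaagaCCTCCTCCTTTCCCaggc
Rps6, chr4:86857348-86857377, minus strand: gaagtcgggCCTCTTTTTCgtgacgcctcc
Rps9, chr7:3704031-3704060, plus strand: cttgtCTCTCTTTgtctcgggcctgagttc
Rpl11, chr4:136053374-136053403, minus strand: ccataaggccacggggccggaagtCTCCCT
Rpsa, chr9:120127756-120127785, plus strand: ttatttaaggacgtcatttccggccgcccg
The tract spanned 17 bases in Rpl15, 14 in Rpl13a, 10 in Rps6 and 8 in Rps9, and these letters had none in Rpsa. In Rpl11 it spanned at least 6, as it ran to the last base shown. The marked tracts of Rpl15, Rps6 and Rps9 span the annotated start, and those of Rpl13a and Rpl11 begin after it. Of the 84 genes, 64 matched the RefSeq table. A tract began at the annotated start in 14 of the 64 (21.9%), against 3.01% of all 27025 genes in the table. Within 20 bases on either side it was found in 50 (78.1%), against 49.9%. The E-box CACGTG, a sequence that MYC proteins bind, was found within 250 bases before to 50 after the start in 6 of 64 (9.38%) and in 8.09% of all genes. It reads the same on both strands, and the tract was searched on the transcript strand only.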

How the data were processed

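Libraries of polyadenylated RNA from flash-frozen tumours were made with NEB protocols, per the labels. The deposited values are whole-number counts per Ensembl gene, 1 file per library. Per the submitters' processing notes, the build was mm10 and the tools TopHat2 2.1.1, HISAT2 and edgeR, without their roles. The sources used here name no read counter or strand setting and do not say how multiply aligned reads were treated.

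Of 54446 rows, 54409 had a symbol in GENCODE M21 (GRCm38), and the other 37 held at most 0.0041% of a library's counts. Counts were tested with edgeR 4.0.16 (R 4.3.3): filterByExpr (minimum count 10, minimum total 15), TMM scaling (factor 0.808 for 5-day library 1, 1.003 to 1.037 for the others), 1 mean per group over all 10 libraries, robust quasi-likelihood F test, Benjamini-Hochberg adjustment over 14956 genes, called under 0.05. Standard errors derive from the F statistic. CPM use scaled library sizes. Values with ± are means and SD over libraries, or fold changes and SE. Deviations by transcript length used log2(CPM + 0.5).

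The genes, lists and tests were chosen with earlier results of these data known. Genes named were the 4 highest and lowest log2 fold changes per comparison (mean of at least 5 CPM), the 4 highest and lowest per kb, and a set of known members with 8 related genes; others are named for their values. No member was called, so the first part of the rule, called genes, named none. Alternatives were DESeq2 1.42.0 and its size factors, no scaling factor, no filter, a mean of at least 5 CPM, fits of the compared groups alone, the repeat number as a block, and leaving out libraries. Adding -ps counts to their gene and taking out a length trend (lowess, span 0.3) were chosen after seeing the data. The fit was tested on simulated data. Plots used matplotlib. A few genes named by this rule are left unreported.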

Additional observations from a re-analysis of the deposited data

Results flagged for a closer look

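In the 5-day group (4 libraries), the gap of the outermost library to its neighbour, divided by the whole range, was set against Dixon's 95% critical value for 44 quantities. It was larger for 7, each time because of library 1. Chance alone flags about 1 in 20 groups, and these quantities share their libraries, so they are not 7 separate results. The ratio was 0.89 for the share of counts in ribosomal protein genes and 0.921 for the share in -ps rows. Among named genes it was 0.901 for Rpl22, 0.898 for Rps6, 0.887 for Rpl38 and 0.887 for Rpl10a, with library 1 the lowest in each. It was 1.0 for Rpl39l, at 0.22 CPM in library 1 and 0 in the other 3, which is under the limit of 3 counts. In the same library the sympathetic markers summed to 889 CPM and the macrophage markers to 13931 CPM, and their part in these values was not tested.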

How the results depend on the processing

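In all 60 combinations of comparison and setting, 0 ribosomal protein genes were called, and no named gene's value turned into a call under any alternative. The median log2 fold change at 5 days stayed negative, from -0.26 to -0.05 against untreated and from -0.29 to -0.03 against 24 h. Leaving out 1 library each gave -0.26 to -0.11 and -0.29 to -0.14. At 24 h against untreated the median ranged from -0.06 to 0.08 and changed sign between settings. The value furthest from the reported one was -0.027 at 5 days against 24 h, with the length trend taken out and without 5-day library 1. For large minus small subunit at 24 h, leaving out 1 library each gave 0.001 to 0.0389, the highest without untreated library 1. Over all genes, calls at 24 h were 7 with only the compared groups, 0 to 2 leaving out 1 library each (2 without 5-day library 1), 3 without 5-day libraries 1 and 2, 2 with -ps rows added and 1 with the length trend taken out, both without 5-day library 1. DESeq2 called 19 genes at 5 days against untreated and 3 against 24 h, and 2 were called against 24 h without 5-day libraries 1 and 2. The cause of these differences was not tested. With -ps rows added, the share of counts was by construction larger, 2.90% at 24 h, 2.39% at 5 days and 2.84% in untreated tumours. Without the 3 genes with most counts, the ratio of large to small subunit was 1.07, 1.08 and 1.09 in these groups.

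With the repeat number as a block, the medians were -0.05 at 24 h, -0.21 at 5 days against untreated and -0.19 against 24 h, and large minus small subunit at 24 h was -0.0115. No gene was called with the block. Correlations of the deviations of same-numbered libraries ran from -0.395 to 0.247, so the numbers were not taken to pair the libraries.

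At 5 days against untreated, the SEs of the tested ribosomal protein genes had an interquartile range of 0.13 to 0.17 on the log2 scale, beside a median difference of -0.19. The share of depth and of spread between libraries in these SEs was not tested. The coefficient of variation of 40.8% with all libraries and 18.9% without 5-day library 1 was that of all genes.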
